A study of Mus musculus with 3 samples.

Results

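Retained-intron transcripts are annotated RNAs of a gene in which sequence lying between the coding exons has stayed in the molecule. The members described here are the transcripts that annotation M21 classes as retained introns, chosen by their TPM, a level per transcript length scaled to the library total, where it averaged 0.1 or more over 3 libraries in the deposited transcript table made from reads without an alignment file. That table is called read-based, and the table made from transcriptome alignments is called alignment-based. The rule kept 7376 of 21848 annotated retained-intron transcripts, out of 141767 annotated transcripts of all kinds. These members lay in 3981 genes, of which 2235 held 1 member, 200 held 5 or more and 1 gene at most 11. Coding transcripts of the same gene were annotated for 7306 of them, and the other 70 had none.

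The RNA came from bone-marrow-derived macrophages, cells grown into macrophages from the marrow of C57BL/6J mice. They had been exposed to 100 ng/ml of Lipid A, the part of bacterial lipopolysaccharide that Tlr4 senses, for 12 hours, left without it for 12 hours and exposed to 100 ng/ml again for 40 minutes. Total RNA of the cytosolic fraction was depleted of ribosomal RNA and sequenced as biological replicates 1, 2 and 3 of this 1 group. No untreated, singly treated or nuclear sample was used here, the 3 libraries carry the same donor label, and every p-value measures only the spread between these libraries, which may be technical. The read-based tables held 46707109, 54881998 and 49287023 estimated counts on annotated transcripts. All 8 macrophage markers were at 1 TPM or more in every library, with a summed level of 4071 to 5638 TPM, while the marker lists of neutrophils, B cells, T cells, fibroblasts with endothelium and red cell precursors summed to at most 0.48 TPM.

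Introns are removed from a new transcript by the spliceosome, which recognises a GT at the start and an AG at the end of nearly every intron. An RNA that keeps an intron is often held in the nucleus until it is spliced or destroyed, and one that reaches the cytosol can carry an early stop codon and be degraded by nonsense-mediated decay. Genes of splicing factors and of the Clk kinases, which phosphorylate them, are known for detained introns, and intron retention has been described for Irf7, a master regulator of type I interferon, in stimulated macrophages.

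The 8 introns below are printed because they lie in members that carry the contrast described further on. The first 5 belong to members whose read-based ratio to their gene's coding transcripts was similar or higher in replicate 2. In the alignment-based table the ratio of 1 of them, Pirb-202, was lowest in replicate 2. The last 3 belong to members that were low in replicate 2. The contrast is one of members and not of introns: intron 5 of Irf7, printed for Irf7-210, is also spanned whole by Irf7-213. Each printed sequence is a whole coding intron that lies inside a member, with the first and last pair of bases in capitals. It is read 5′ to 3′ from the M21 transcript sequences on the mm10 build. The intron of Irf7-210 is intron 5 of 9 at chr7:141264656-141264724 on the minus strand and has 69 bases. That of Psmb8-205 is intron 2 of 5 at chr17:34199381-34199570 on the plus strand and has 190 bases. That of Pirb-202 is intron 6 of 14 at chr7:3716891-3717117 on the minus strand and has 227 bases. The intron of Rps20-201 is intron 1 of 3 at chr4:3835292-3835483 on the minus strand, has 192 bases and is 71.9% G and C. The intron of Ncl-202 is intron 10 of 13 at chr1:86352320-86352509 on the minus strand and has 190 bases, of which 32.6% are G or C. The intron of Irf7-213 is intron 4 of 9 at chr7:141264784-141265074 on the minus strand and has 291 bases. That of Clk1-204 is intron 6 of 12 at chr1:58417180-58417266 on the minus strand and has 87 bases, of which 27.6% are G or C. That of Actb-204 is intron 2 of 5 at chr5:142905477-142905563 on the minus strand and also has 87 bases.
Irf7-210 intron 5: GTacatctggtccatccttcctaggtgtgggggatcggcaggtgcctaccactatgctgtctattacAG
Psmb8-205 intron 2: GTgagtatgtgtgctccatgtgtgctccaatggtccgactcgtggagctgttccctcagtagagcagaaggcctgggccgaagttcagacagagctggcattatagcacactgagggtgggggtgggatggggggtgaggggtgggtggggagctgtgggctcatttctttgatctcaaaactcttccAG
Pirb-202 intron 6: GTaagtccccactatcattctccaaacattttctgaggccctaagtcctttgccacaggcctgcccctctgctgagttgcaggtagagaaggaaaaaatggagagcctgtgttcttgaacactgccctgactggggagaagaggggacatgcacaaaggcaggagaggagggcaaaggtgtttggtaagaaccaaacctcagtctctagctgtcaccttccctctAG
Rps20-201 intron 1: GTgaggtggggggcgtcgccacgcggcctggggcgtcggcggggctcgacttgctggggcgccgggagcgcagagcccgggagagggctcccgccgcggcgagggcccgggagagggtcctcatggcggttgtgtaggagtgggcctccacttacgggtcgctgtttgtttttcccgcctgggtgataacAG
Ncl-202 intron 10: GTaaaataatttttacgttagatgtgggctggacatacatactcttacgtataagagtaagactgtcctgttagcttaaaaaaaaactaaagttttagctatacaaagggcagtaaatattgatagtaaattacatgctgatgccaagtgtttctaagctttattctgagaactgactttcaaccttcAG
Irf7-213 intron 4: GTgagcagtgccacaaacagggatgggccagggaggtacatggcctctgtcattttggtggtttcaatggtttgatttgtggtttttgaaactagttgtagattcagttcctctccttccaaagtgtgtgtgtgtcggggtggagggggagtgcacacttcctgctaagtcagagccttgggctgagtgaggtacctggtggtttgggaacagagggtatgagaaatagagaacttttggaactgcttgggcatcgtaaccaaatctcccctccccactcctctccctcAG
Clk1-204 intron 6: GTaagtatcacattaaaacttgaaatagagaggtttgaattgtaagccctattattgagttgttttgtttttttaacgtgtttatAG
Actb-204 intron 2: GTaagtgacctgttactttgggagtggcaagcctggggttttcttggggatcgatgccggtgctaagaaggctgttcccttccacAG

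All 8 begin with GT and end with AG, as did 98.9% of the 2350 distinct coding introns of 50 or more bases that members spanned whole, with 2 that began AT and ended AC. The letters GTAAGT, which match the U1 small nuclear RNA that marks the start of an intron, opened the introns of Pirb-202, Clk1-204 and Actb-204 and 11.5% of all introns spanned by members, against 8.89% of 4913 spanned only by the other annotated retained-intron transcripts. GTGAGT opened those of Psmb8-205 and 14.7% of the members' introns, against 15.6% of the others. Both introns of Irf7 opened with neither. Both searches read only the strand of the gene and only the first bases of an intron.

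The spanned introns were short. Their median length was 290 bases with quartiles of 118 and 770.5, and 51.1% were under 300 bases, whereas 19.2% of all 62408 coding introns of genes with a member were, at a median of 1304 bases. Introns spanned by retained-intron transcripts that were not members had a median of 247 bases, so shortness marked annotated retained introns in general and was not particular to those present in these cells. Of the members' introns 96.1% lay inside the coding sequence, 8.47% were the first and 6.94% the last of their transcript. Whole introns were the lesser form: 1870 members, 25.6% of those with coding transcripts, spanned at least 1 coding intron from end to end, and 5169 held only part of one. A median of 42.3% of a member's bases lay outside every coding exon of its gene but between coding exons, with quartiles of 21.7% and 65.6%. This percentage is called the intronic share below, and it was 40.4% at the median for the other retained-intron transcripts. Members were short beside coding transcripts, with a median of 857.5 bases against 2221 for coding transcripts at 0.1 TPM or more, and 716 of them (9.71%) were a single unspliced exon.

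Most members were scarce, and a few were abundant messages of macrophage genes. The median member averaged 0.238 read-based TPM, 867 members reached 1 TPM and 63 reached 10 TPM. Just inside the threshold lay Rbl2-203, Rpl35a-206 and Ralgapb-207 at means of 0.10003, 0.10004 and 0.10004 TPM, and just outside it Cfap20-206, Git2-216 and Ankzf1-205 at means of 0.099975, 0.099979 and 0.099998 TPM, so transcripts of nearly the same level lie on either side. Of the members 3730 were at 0.1 TPM or more in every library and 383 were at 0 in at least 1. Alignment-based, 6477 of the 7376 members also averaged 0.1 TPM or more, 251 were at 0 in all 3 libraries, and 2588 further retained-intron transcripts reached 0.1 TPM there without being members. The deposited lower bounds of the alignment-based TPM were 0.1 or more in all 3 libraries for 2455 members and below 0.1 in all 3 for 1575. Together the members summed to 6264, 5112 and 6340 read-based TPM in replicates 1, 2 and 3, which was 5.66%, 4.30% and 6.59% of the TPM of all coding transcripts. In the alignment-based table the same percentages were 4.80, 3.55 and 4.93. Replicate 2 was the lowest in both tables, and without it the read-based mean, over members chosen on the other libraries, was 6.25% in place of 5.52%.

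The most abundant member was Ctsb-202, a transcript of the lysosomal protease cathepsin B at chr14:63135518-63141863, with 320.3, 486 and 279.9 read-based TPM in replicates 1, 2 and 3. The coding transcripts of Ctsb held 645, 727 and 576 TPM, above the member in every library. The alignment-based table gave Ctsb-202 473, 313 and 109 TPM, a different order of the libraries, and its deposited bounds in replicate 3 ran from 94.6 to 120. Only 11.4% of the bases of Ctsb-202 were intronic. H2-K1-215, of an MHC class I heavy chain, held 154, 287 and 258 TPM, and Itm2b-202, of an integral membrane protein, 196, 289 and 190.4 TPM. H2-K1 has close relatives in the H2 cluster, so its values are uncertain. For Itm2b the member and the coding transcripts overlapped in the read-based table, at 244, 250.2 and 186 TPM for coding, but not in the alignment-based table, at 388, 400.3 and 348 TPM for the member and 767, 694 and 597 for coding.

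In TPM, Rps20-201, Pirb-202 and Rgs1-203 exceeded the coding transcripts of their gene. Rps20-201, which spans the first intron of a small-subunit ribosomal protein gene, held 67.1, 67.3 and 40.0 read-based TPM against 5.33, 5.46 and 4.43 for the coding transcripts. Pirb-202, of an inhibitory immunoglobulin-like receptor of myeloid cells, held 45.6, 45.4 and 38.3 TPM against 3.53, 2.43 and 3.08. Rgs1-203, of a regulator that shortens chemokine receptor signals, held 39.5, 67.7 and 12.0 TPM against 2.60, 2.86 and 0.77. In all 3 genes the lowest member value stood above the highest coding value. The alignment-based coding transcripts of Pirb held 29.5, 37.5 and 30.2 TPM, against 98.3, 73.7 and 83.0 for Pirb-202. By estimated counts in the alignment-based table, which are not per length, the log2 ratio of Rps20-201 was 0.10 and that of Rgs1-203 was -0.99. Against all other transcripts of the gene that of Pirb-202 was 0.14. Rps20 has many near-identical processed copies and Pirb has near-identical Pira neighbours, so both are uncertain. Aif1-205, of a calcium-binding macrophage protein, held 45.8, 60.8 and 55.4 read-based TPM, below its coding transcripts at 119, 94.6 and 81.5. In the alignment-based table Aif1-205 was level with coding, at 268, 186.5 and 218 TPM against 276, 177 and 187. The log2 ratio there was 0.09 ± 0.26 (SE, n = 3, limma adjusted p = 0.760). Vim-203, of the filament protein vimentin, held 44.8, 68.3 and 47.8 read-based TPM. Rpl13a-213, of a large-subunit ribosomal protein, held 27.2, 55.9 and 32.2 TPM, and Apobec1-204, of a cytidine deaminase that edits RNA, 28.3, 40.6 and 41.2. None of Ctsb-202, H2-K1-215, Itm2b-202, Aif1-205, Vim-203, Rgs1-203, Rpl13a-213 and Apobec1-204 spanned a whole coding intron, and the intronic share of these 8 ran from 0% for Aif1-205 to 26.8% for Rgs1-203. The strongest members were thus mostly exonic in sequence, and reads of their shared exons were divided between them and the coding transcripts by the authors' quantification.

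**Figure D1:**
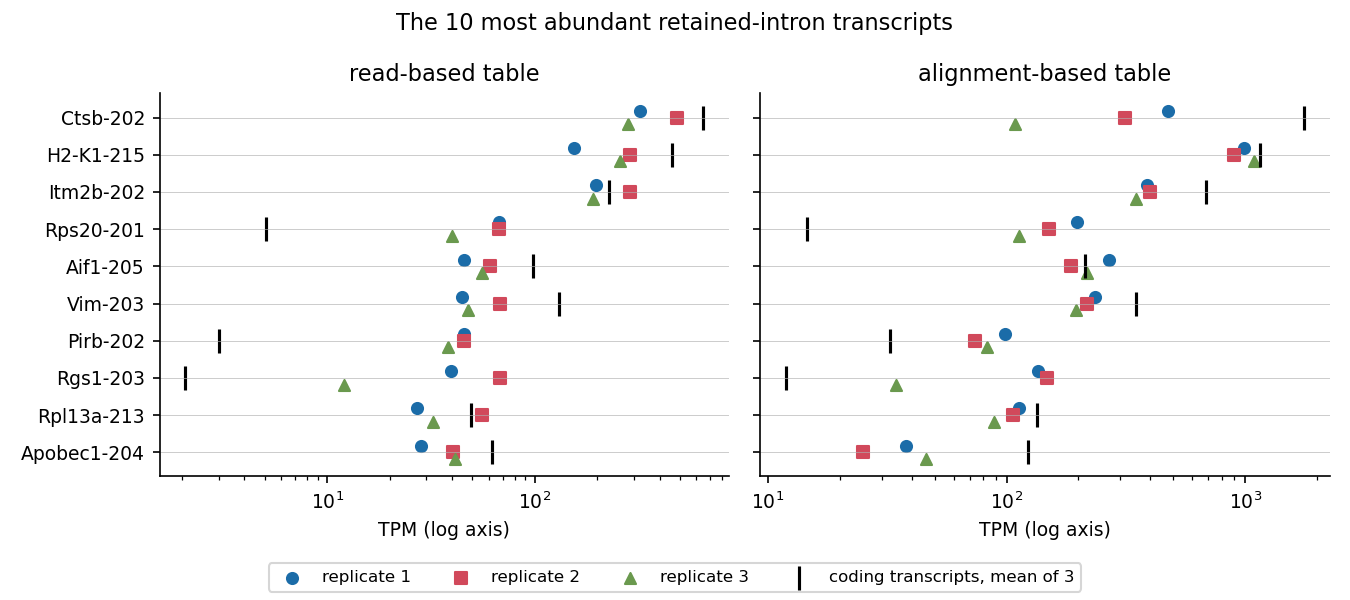
TPM on a log axis of the 10 members with the highest read-based mean, in replicates 1, 2 and 3 (coloured points), beside the mean TPM of the coding transcripts of the same gene (black bars), in the read-based table (left) and the alignment-based table (right). Rps20-201, Pirb-202 and Rgs1-203 lie to the right of their coding bar in every library of both tables.

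Against the coding transcripts of their gene, nearly all members were the minor form. The log2 ratio of a member to its gene's summed coding transcripts, each with 0.1 TPM added, was fitted with limma in the alignment-based table for all 15105 retained-intron transcripts of 5818 genes whose retained-intron and coding transcripts averaged 1 TPM or more. That table did not choose the members, though it holds the same reads. Of all 15105 transcripts 0.583% were above coding and 97.9% below at an adjusted p under 0.05. Of the 7108 members tested 88 were above, 6815 below and 205 on neither side by that test, at a median log2 ratio of -4.78, against -4.90 over all transcripts tested. Without replicate 2, which stood apart as described below, 90 members were above coding and 6798 below, at a median of -4.41. All 88 transcripts above coding were members, which the minimum TPM of the rule favours, so the count is given with no weight. Of the 88, 78 were above coding in every library of both tables. Exons of another annotated gene overlapped 24 of the 88 (27.3%) and 13.9% of the other 7288 members. Whether counting used strand is not given in the sources used here, and reads of overlapping genes may then be shared.

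**Figure D2:**
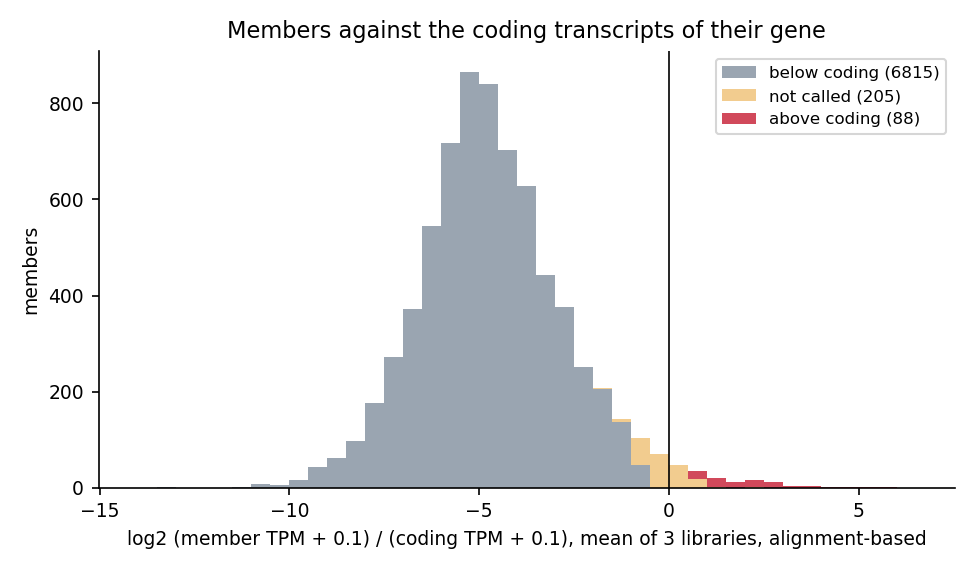
Number of members by the mean log2 ratio of member to coding TPM in the alignment-based table, with 0.1 TPM added to both, for 7108 tested members. Grey bars are the 6815 members below coding, yellow the 205 on neither side and red the 88 above, by limma with a Benjamini-Hochberg adjusted p under 0.05; the bulk lies near the median of -4.78.

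Among the 10 members with the highest ratios, the alignment-based coding transcripts of Olfr56, Slc27a1, Psd, Mx2 and Exoc3l4 stayed at 0.28 TPM or less. Those of Mrpl57, Taf10, Tmem132a and Rps20 were higher, up to 16.0 TPM for Rps20. Olfr56-205 at chr11:49087034-49126445, of an olfactory receptor gene, held 16.2, 9.31 and 12.3 alignment-based TPM in the 3 libraries against 0.15, 0.04 and 0.13 for coding, a log2 ratio of 5.95 ± 0.27 (SE, n = 3, limma adjusted p = 1.18e-05). In the read-based table the member held 5.83, 4.03 and 4.53 TPM against 0.961, 0.914 and 0.79, a read-based minus alignment-based log2 ratio of -3.65 ± 0.18 (SE, n = 3, limma adjusted p = 0.0028). It shares 111 exonic bases on the same strand with Ifi47, an interferon-induced GTPase whose transcripts summed to 88.9 TPM. Slc27a1-202, of a fatty acid transporter, held 14.6, 13.4 and 12.1 TPM. Slc27a1-205 held 10.2, 11.6 and 9.09 TPM, while the coding transcripts of Slc27a1 stayed between 0.15 and 0.28 TPM. In the read-based table the coding transcripts of Slc27a1 held 1.24, 2.78 and 2.04 TPM, so the distance between member and coding was much smaller there. Psd-214, of a guanine nucleotide exchange factor for Arf6, held 4.07, 1.80 and 2.57 TPM against 0, 0.02 and 0.02. Mx2-205, of an interferon-induced GTPase, held 6.01, 1.84 and 6.06 TPM against 0.08, 0.15 and 0.05 and was lowest in replicate 2. Against all other transcripts of the gene and not only the coding ones, the log2 ratios of Slc27a1-205, Mx2-205 and Rgs1-203 turned to -0.51, -2.89 and -0.97.

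Taf10-202, of a subunit of the general transcription factor TFIID, held 35.3, 29.8 and 25.7 alignment-based TPM against 1.89, 1.83 and 2.02 for coding, at a log2 ratio of 3.90 ± 0.28 (SE, n = 3, limma adjusted p = 2.82e-05). Mrpl57-202, of a mitochondrial ribosomal protein, is a single exon and held 16.1, 18 and 16.3 TPM against 1.15, 1.04 and 0.93. Exoc3l4-211 held 3.78, 3.6 and 3.11 TPM and overlaps 387 bases of Gm10425 on the other strand. Tmem132a-203, a single exon that spans 1 whole coding intron, held 64.1, 39.8 and 42.4 TPM against 4.17, 3.44 and 3.71, at a log2 ratio of 3.63 ± 0.27 (SE, n = 3, limma adjusted p = 3.50e-05). It shares 225 bases with Slc15a3, which is transcribed from the other strand at a summed 210.7 TPM. For Taf10, Mrpl57, Exoc3l4 and Tmem132a the member and coding values did not overlap in either table. Rps20-201, with a log2 ratio of 3.36 ± 0.28 (SE, n = 3, limma adjusted p = 4.93e-05), closed the 10 highest.

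The tables placed members differently against coding. The read-based minus the alignment-based log2 ratio was 0.79 at the median of the tested members and 0.99 over all 15105 transcripts. It was above 0 at a limma adjusted p under 0.05 for 5083 members, against 81.0% of all transcripts, and below 0 for 306, against 2.75%. Coding transcripts summed to 110701, 118785 and 96231 TPM in the read-based and to 308096, 261850 and 256793 TPM in the alignment-based table, and 0.1 TPM therefore weighs more in the first. After both tables were rescaled to the same coding total, 950 members were above 0, against 7.98% of all transcripts, and 88 below, against 1.02%, with a median of 0.56. The members' share above 0 lay under that of all transcripts in the deposited tables and over it after rescaling.

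The 5 members that stood highest in the read-based against the alignment-based table were all from ribosomal protein genes. Rpl27a-201 held 3.42, 9.18 and 6.72 read-based TPM but 0.01, 0.28 and 0.02 in the alignment-based table, and Rpl31-204 held 4.99, 9.95 and 3.53 against 0, 0.38 and 0. For Rps12-209 and Rps12-202 the coding transcripts differed far more than the members, at 2.96, 2.86 and 2.54 read-based and 381, 359 and 289 alignment-based TPM, and Rpl12-207 showed the same with 0.198, 0.276 and 0.18 and 56.0, 52.4 and 42.9. These genes have near-identical processed copies, and their values are uncertain. In the opposite direction, Anpep-206, of the myeloid surface peptidase CD13, held 0.324, 0.146 and 0.416 read-based but 47.1, 61.9 and 53.0 alignment-based TPM. Tmem59-205 held 0.246, 0.126 and 0.259 against 9.08, 12.0 and 15.2 TPM, and Cct3-203, of a chaperonin subunit, 0.456, 0 and 0 against 12.3, 8.17 and 9.60. Slc27a1-205, described above, was also among them.

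The libraries differed in how much intronic RNA they held. Of all read-based estimated counts on annotated transcripts, retained-intron transcripts took 2.90% in replicate 1, 1.70% in replicate 2 and 3.03% in replicate 3, and the alignment-based percentages were 2.61, 1.54 and 2.71. A deviation of replicate 2 was computed per member as its read-based log2 ratio to coding minus the mean of replicates 1 and 3. It was below 0 for 6426 of 7306 members (88.0%), with a median of -1.01, and the alignment-based table gave a median of -0.99. The same median was 0.27 for replicate 1 and 0.73 for replicate 3. Transcripts annotated as targets of nonsense-mediated decay had a median read-based deviation of -0.18 in replicate 2 (2152 transcripts), and processed transcripts without a coding sequence one of -0.57 (4239 transcripts). In the alignment-based table these 2 medians were -0.06 and -0.15. The deviation is a description of 1 library against 2 and carries no test. In bulk libraries, fewer cells with such RNA and less of it per cell cannot be told apart.

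The deviation went with the intronic share of the member. Among 2115 members with up to 25% intronic bases the median deviation was -0.50, and 71.1% were below 0. It was -1.05 for 2181 members of 25 to 50%, -1.13 for 1752 of 50 to 75% and -1.14 for 1258 of over 75%, of which 98.0% were below 0. In the alignment-based table the medians were -0.38, -1.02, -1.16 and -1.26. The share of TPM told the same. In the read-based table, members of up to 25% took 9.46%, 9.78% and 11.1% of their genes' summed member and coding TPM in replicates 1, 2 and 3. Replicate 2 lay between the others there, but was the lowest in the alignment-based table, at 9.32%, 8.52% and 9.39%. Members of over 75% took 3.17%, 0.939% and 3.50% read-based and 2.28%, 0.660% and 2.48% alignment-based, so replicate 2 lay far below both other libraries. In read-based TPM, replicate 2 stood at 1.14 times the mean of replicates 1 and 3 for the least intronic members and at 0.337 times for the most intronic. In alignment-based TPM the same factors were 0.874 and 0.270. These 4 classes were chosen after the data were seen. The most intronic members were also the longest, at a median of 2448 bases against 772 for the least intronic, and had more estimated counts, at a median of 76.6 against 46.6.

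**Figure D3:**
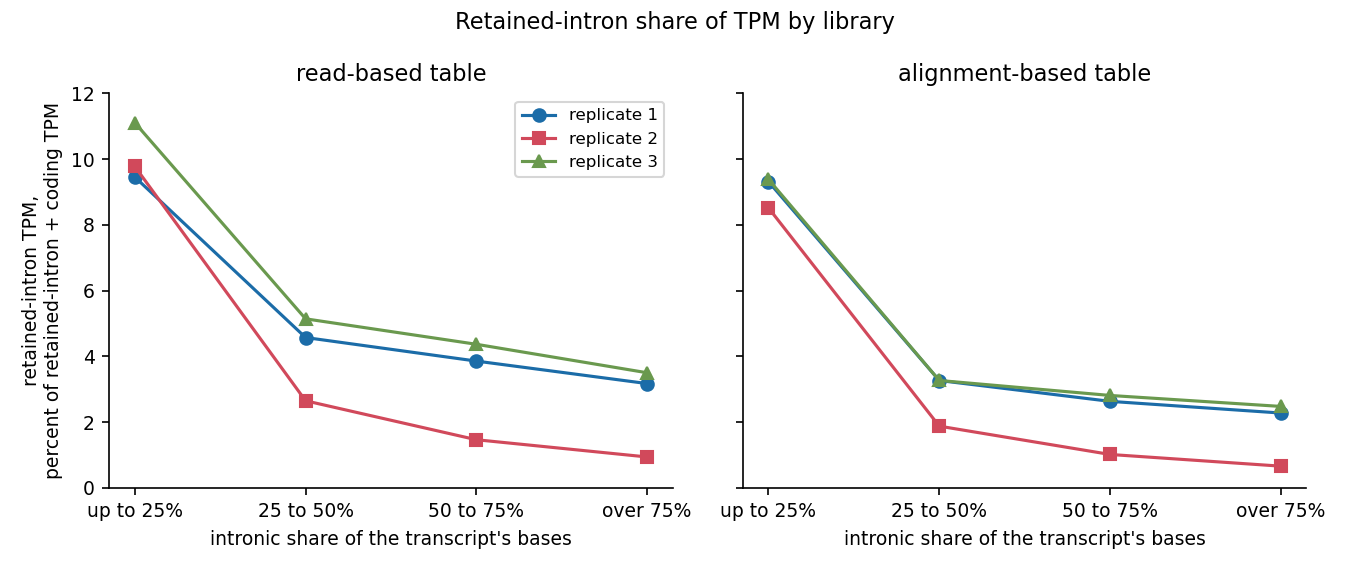
Percent of the summed retained-intron and coding TPM taken by members, in 4 classes of intronic share, for replicates 1, 2 and 3 in the read-based (left) and alignment-based (right) table. Replicate 2 lies close to the others in the class of up to 25% and at 0.939% against 3.17% and 3.50% in the read-based class of over 75%.

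**Figure D4:**
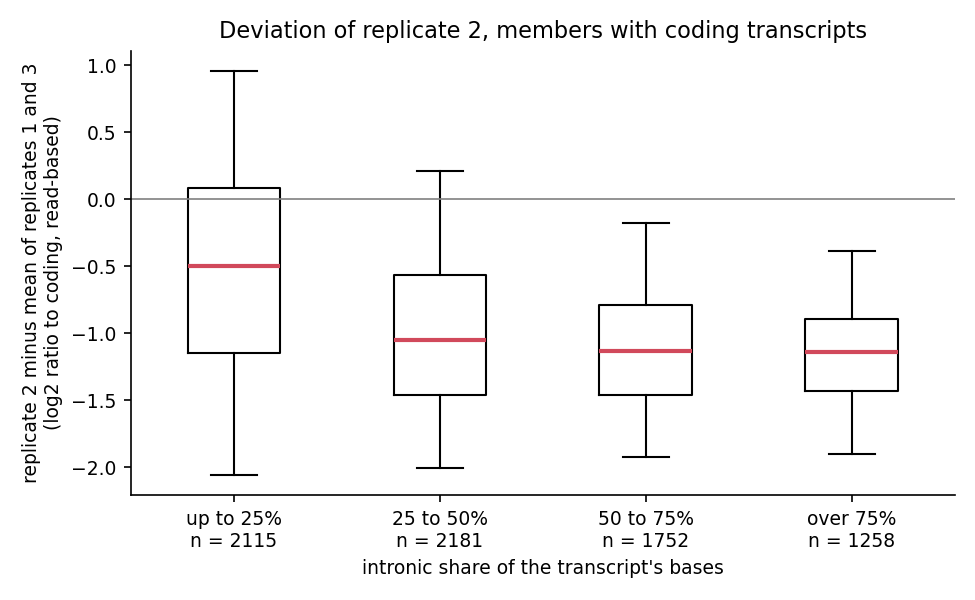
Deviation of replicate 2 from the mean of replicates 1 and 3, as a log2 ratio to coding in the read-based table, by class of intronic share. Boxes span the quartiles, the red line is the median and the whiskers reach the 5th and 95th percentile of members; medians run from -0.50 in the least to -1.14 in the most intronic class.

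Some long RNAs that reside in the nucleus were also low in replicate 2. Of a list of 12 long RNA genes, most of them nuclear, 7 were at 1 TPM or more in every library and 2, Meg3 and Miat, were at 0 in all, and 7 were lower in replicate 2 than in both others. The list summed to 1664, 595 and 1934 alignment-based TPM, most of it Malat1. Malat1, a scaffold RNA of nuclear speckles, held 1445, 485 and 1726 TPM, and Neat1, the core of paraspeckles, 87.7, 16.1 and 88.3. Their part in the difference between the libraries was not tested. The hosts of small nucleolar RNAs did not share the pattern: Gas5 held 51.5, 49.0 and 42.8 TPM, Snhg1 7.17, 7.07 and 6.49 and Snhg12 8.51, 9.04 and 6.85.

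Members that spanned a whole intron fell on both sides of this pattern. Of 37 such members at 5 TPM or more, in 30 genes, the deviation of replicate 2 was within 0.25 of 0 for 12, below -1 for 11 and above 0 for 14. Psmb8-205, of an immunoproteasome subunit induced by interferon, held 37.9, 36.1 and 28.7 read-based TPM, and its coding transcripts 32.2, 37.2 and 32.9. The 2 sets overlapped, the log2 ratio was -0.06 ± 0.27 (SE, n = 3, limma adjusted p = 0.839) in the alignment-based table, and the deviation was -0.06. Pirb-202 deviated by 0.55 and Rps20-201 by 0.21, both read-based. For Pirb-202 the tables differed in direction. Alignment-based, it held 98.3, 73.7 and 83.0 TPM against 29.5, 37.5 and 30.2 for coding, so its ratio was lowest in replicate 2. Ncl-202, of the nucleolar protein nucleolin, spans 2 whole introns and held 13.5, 15.4 and 13.3 TPM against a mean of 2.00 for coding, with a deviation of 0.26. Prelid1-202 held 14.6, 18.2 and 15.0 TPM, Tap2-202, of the peptide transporter that loads MHC class I, 13.3, 9.68 and 9.66, and Cd83-202, of a surface protein of activated myeloid cells, 20.3, 21.2 and 9.74. Their deviations were 0.07, -0.18 and -0.01, and all 3 were above coding in the alignment-based table at log2 ratios of 2.17 ± 0.26 (SE, n = 3, limma adjusted p = 2.90e-04), 1.79 ± 0.26 (SE, n = 3, limma adjusted p = 7.14e-04) and 1.72 ± 0.26 (SE, n = 3, limma adjusted p = 9.03e-04). Calr-204, of the endoplasmic reticulum chaperone calreticulin, was low in replicate 1 and not in replicate 2, at 7.96, 25 and 28.1 TPM.

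On the other side, Rsrp1-204, of an arginine- and serine-rich protein, held 16.9, 4.89 and 16.7 TPM with a deviation of -2.33. Fth1-208, of the ferritin heavy chain, held 15.3, 4.66 and 13.2 TPM beside coding transcripts at a mean of 6741 TPM, and deviated by -1.96. The Lilrb4a and Lilr4b members at 5 TPM or more were low too, from -3.64 for Lilrb4a-214 to -1.20 for Lilr4b-207, but these receptor genes are near-identical copies and their values are uncertain. Replicate 2 was below both other libraries for Rsrp1-204, Fth1-208 and Lilrb4a-214. Among all 199 whole-intron members at 1 TPM or more the median deviation was -1.03, with 101 below -1 and 38 within 0.25 of 0. Among 659 members of that level without a whole intron it was -0.40. Ncl, Prelid1, Tap2, Cd83, Rsrp1, Lilrb4a and Lilr4b are named because of these values.

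Irf7 held both kinds of member in 1 gene. Its coding transcripts averaged 246 read-based TPM and its 6 members took 13.2%, 11.4% and 13.8% of the gene's member and coding TPM in replicates 1, 2 and 3. Irf7-210 differs from the spliced message mainly by the 69-base intron 5 printed above, has an intronic share of 3.59%, and held 26.4, 22.2 and 17.4 TPM. Irf7-206, which spans 1 whole intron, held 10.6, 10.6 and 10.1 TPM. Their deviations of replicate 2 were -0.17 and -0.19. Irf7-213 is a single exon that spans 7 introns clear of every coding exon, including the 291-base intron 4, and held 2.28, 0.953 and 1.83 TPM with a deviation of -1.24. Irf7-211 held 1.11, 0.531 and 1.45 TPM, Irf7-205 held 0.66, 0.127 and 0.428 TPM and Irf7-209 held 0.435, 0 and 0.0892 TPM. Each was lowest in replicate 2, with deviations of -1.34, -1.70 and -1.89. Irf7-211 has an intronic share of 37.2%. The intronic shares of Irf7-205 and Irf7-209 were 12.2% and 15.0%, below the 24.6% of Irf7-206, so deviation and intronic share did not go together within Irf7. All 6 were below coding in the alignment-based table by limma, from -3.75 ± 0.26 (SE, n = 3, limma adjusted p = 2.64e-05) for Irf7-210 to -10.46 ± 0.37 (SE, n = 3, limma adjusted p = 1.16e-05) for Irf7-209. In the alignment-based table Irf7-210 held 60.2, 43.3 and 42.2 TPM, with replicate 2 between the others, Irf7-206 held 9.82, 6.13 and 7.94 and Irf7-213 held 6.92, 2.18 and 5.09, both lowest in replicate 2.

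**Figure D5:**
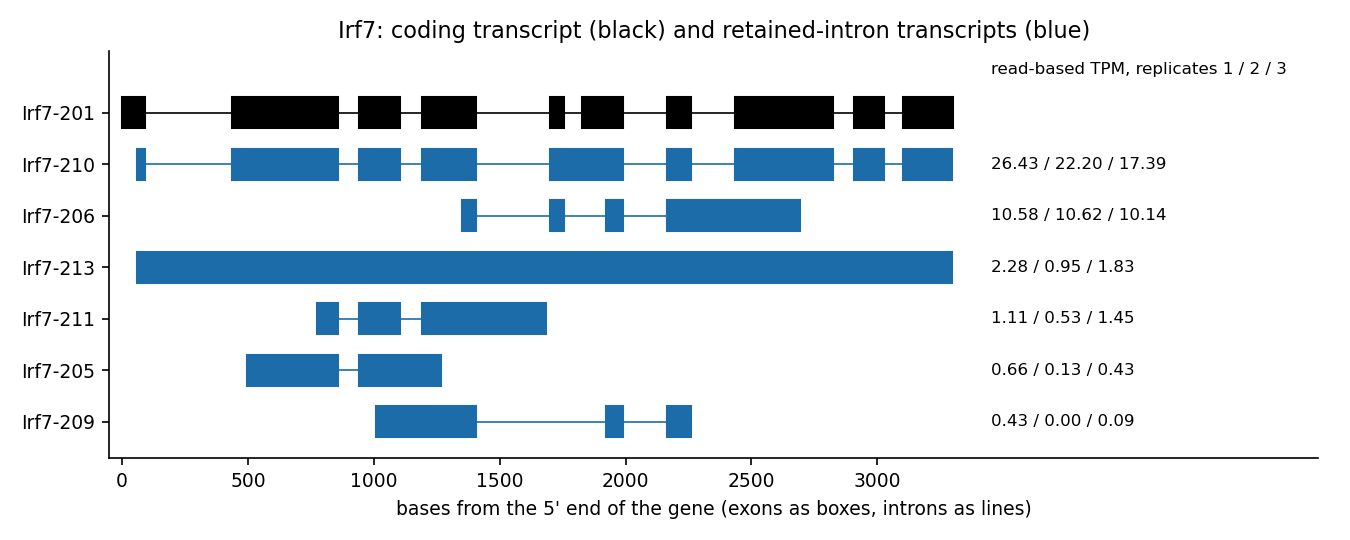
Exons (boxes) and introns (lines) of the coding transcript Irf7-201 in black and of the 6 Irf7 members in blue, in bases from the 5′ end of the gene, with the read-based TPM of replicates 1, 2 and 3 at the right. Irf7-210 fills the gap of intron 5 only, while Irf7-213 is unspliced from its start to its end and is lowest in replicate 2 at 0.95 TPM.

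Several splicing genes gave a large part of their TPM to members. Of 50 splicing factor genes 44 had at least 1 member, 152 in all, of which 0 were above coding and 152 below by limma at an adjusted p under 0.05, with a median log2 ratio of -4.73, against -4.78 over all members. These counts are near those over all transcripts tested, of which 97.9% were below coding and 0.583% above, and the same background holds for each list that follows. For each list described here, the counts above and below coding at an unadjusted limma p under 0.05 were the same as at the adjusted p, so the counts of 0 above coding also held there. The median deviation of the 152 splicing factor members in replicate 2 was -1.29, against -1.01 over all members, and 146 were below 0. Their median level was 0.413 TPM, against 0.238 TPM over all members. Rbm39, a U2AF-related factor, gave 63.2%, 42.0% and 62.3% of its member and coding TPM to 7 members, of which Rbm39-208 held 6.06, 2.32 and 4.48 TPM. Srsf11, an SR protein, gave 63.2%, 43.5% and 55.3%, and Luc7l2, a U1 snRNP partner, 49.0%, 23.1% and 53.0%. Luc7l2-210, all of whose bases are intronic, held 2.23, 0.728 and 2.98 TPM. Hnrnpa2b1-208, of an RNA-binding protein that sorts RNA, held 3.85, 1.39 and 3.93 TPM. Srsf11-211, with 13.8% intronic bases, held 1.63, 1.38 and 0.882 TPM and replicate 2 lay between the others. Luc7l2-203 has only 10.4% intronic bases and held 1.71, 0.748 and 1.48 TPM, with a deviation of -1.10.

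All 10 genes of the list of splicing kinases and known detained introns had a member, 29 in all, of which 0 were above coding, 26 below and 3, Clk1-204, Clk1-202 and Prpf4b-206, on neither side. Clk1, a kinase of SR proteins, gave 67.6%, 38.5% and 75.9% of its TPM to 5 members. Clk1-204, which spans 3 whole introns, held 1.38, 0.453 and 1.2 TPM against 1.98, 2.09 and 1.14 for coding, and its log2 ratio in the alignment-based table was -0.88 ± 0.49 (SE, n = 3, limma adjusted p = 0.125). Clk1-202 held 1.13, 0.399 and 1.05 TPM and Clk1-209 1.12, 0.314 and 1.01. In all 3, replicate 2 was at most 0.453 TPM and the other libraries at least 1.01 TPM. Clk4, a close relative, gave 51.6%, 28.1% and 69.3% to 5 members, of which Clk4-209 was listed at 0 in replicate 2. Ogt, the enzyme that adds N-acetylglucosamine to nuclear proteins, gave 45.5%, 34.8% and 48.0%, with Ogt-204 at 1.87, 0.597 and 1.93 TPM. Mat2a, which makes S-adenosylmethionine, gave only 9.22%, 4.93% and 11.5% to 3 members, and an antisense gene overlaps all 3 of them. Clk3-202, with 7.97% intronic bases, held 0.772, 1.89 and 1.22 read-based TPM and was highest in replicate 2. Clk3-203, with 57.5%, held 0.491, 0.156 and 0.564 and was lowest there. In the alignment-based table Clk3-202 held 2.79, 2.50 and 2.13 TPM, with replicate 2 between the others. Clk3-203 was again lowest in replicate 2, at 1.27, 0.33 and 1.39.

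Genes of the Toll and NF-kB response and early response carried members in 26 of 54, with 46 members, of which 0 were above coding, 45 below and 1, Tnip3-205, on neither side. The share below coding was near the 97.9% of all transcripts. Their median deviation in replicate 2 was -1.50, and 45 of 46 were below 0, against -1.01 and 88.0% over all members. Macrophage and lysosome genes stood at -1.58 and ribosomal and translation genes at -1.26. Splicing kinases and known detained introns stood at -1.07, nonsense-mediated decay and RNA export at -0.98 and glycolysis and housekeeping at -0.94. The median Toll list member averaged 1.86 TPM, against 0.238 TPM over all members. The 0.1 TPM added draws deviations of low members towards 0, and the part of level in these medians was not tested. Tnip3, an inhibitor of NF-kB that binds A20, gave 54.3%, 47.1% and 63.2% of its TPM to 4 members. Tnip3-205, with 27.7% intronic bases, held 14.5, 11.7 and 13.0 TPM and Tnip3-206, with 94.7%, 4.35, 1.49 and 4.05. Only the second was far lower in replicate 2. Ikbke-207, of a kinase that phosphorylates Irf3 and Irf7, held 10.1, 2.34 and 11.6 TPM, and Tnfaip3-206, of A20 itself, 10.7, 4.28 and 7.65. Ccl5-202, of a T cell attracting chemokine, held 24.2, 7.34 and 14.1 TPM beside coding transcripts at 1748, 1832 and 1614 TPM, so that 1.37%, 0.399% and 0.867% of the gene's TPM came from the member.

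Of 45 interferon response genes 29 had a member, 76 in all, of which 2, Mx2-205 and Tap2-202, were above coding, 73 below and 1, Psmb8-205, on neither side, against 0.583% above and 97.9% below over all transcripts tested. The median deviation was -1.36, against -1.01 over all members, and the median level 0.760 TPM, against 0.238 TPM. Mx1, an antiviral GTPase, showed both kinds: Mx1-208, with 7.39% intronic bases, held 15.1, 14.2 and 14.1 TPM, and Mx1-206, with 27.6%, 10.6, 1.95 and 8.14. Stat2, the interferon signal transducer, also did, with Stat2-206, at 26.1% intronic bases close to Mx1-206, at 9.72, 10.2 and 10.01 TPM and Stat2-203, with 64.5% intronic bases, at 1.78, 0.898 and 2.51. Among the macrophage and lysosome genes 24 of 42 had a member, and all 46 members were below coding, at a median log2 ratio of -7.05, against -4.78 over all members. Cybb, the catalytic subunit of the phagocyte NADPH oxidase, had Cybb-203 at 10.01, 4.24 and 7.06 and Cybb-202 at 6.03, 2.06 and 3.92 TPM, both lowest in replicate 2. Grn-206, of the growth factor progranulin, with 23.6% intronic bases, held 10.7, 12.2 and 10.5 read-based TPM. Grn-208, with 19.8%, held 2.56, 0.639 and 1.73 read-based TPM with a deviation of -1.71. In the alignment-based table, however, Grn-208 held 3.38, 1.57 and 0.63 TPM and was lowest in replicate 3. Ctsb-203, with 95.9% intronic bases, held 4.76, 1.30 and 5.53 TPM, where the mostly exonic Ctsb-202 was highest in replicate 2 of the read-based table.

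Of 46 ribosomal and translation genes 32 had a member, with 92 members, of which 0 were above coding, 91 below and 1, Rpl13a-213, on neither side, at a median log2 ratio of -7.17, against 97.9% below over all transcripts and a median of -4.78 over all members. Rps20-201 lies outside this list. Eef1a1-202, of the elongation factor that brings transfer RNA to the ribosome, held 2.32, 1.13 and 2.48 TPM beside 366, 416 and 299 for coding. Eif4g2-209, of a translation initiation factor, has 15.1% intronic bases and held 0.99, 0.378 and 1.18 TPM, with a deviation of -1.40. Glycolysis and housekeeping genes lay lower still, at a median of -8.23 over 44 members in 20 of 32 genes, with all 44 below coding. Of beta actin, Actb-204 held 3.27, 0.95 and 4.16 TPM and Actb-205 held 4.83, 1.78 and 4.81 TPM beside a coding mean of 1315 TPM. Both were lowest in replicate 2, with deviations of -1.77 and -1.31. Among 26 genes of nonsense-mediated decay and RNA export 14 had a member, and of 33 members 0 were above coding, 31 below and 2 on neither side. Those 2 were Thoc1-211, of the THO export complex, at 1.40, 1.37 and 1.17 TPM, and Alyref-203, of an export adaptor, at 1.01, 1.05 and 1.03, both level across the libraries. The list of long nuclear RNAs had 6 members in 2 of 12 genes, Gas5 and Snhg1, for which no coding transcript was summed and no ratio was formed.

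Members at 1 TPM or more that varied most between libraries did not share a pattern by library. Ppia-203, of cyclophilin A, held 9.55, 0 and 0.513 read-based TPM and 21.5, 0 and 0.28 in the alignment-based table, high in replicate 1 alone in both. Hsp90aa1-204, of an inducible chaperone, held 0.733, 4.65 and 3.12e-07 read-based TPM and less spread in the alignment-based table, at 12.1, 16.8 and 11.3. Gdap1-203 held 0.0231, 2.28 and 1.67 read-based TPM and was listed at 0 in all 3 alignment-based tables. Ppia-203 and Hsp90aa1-204 kept their order of the libraries in both tables, and Gdap1-203 did not. Ppia has many processed copies and is uncertain.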

How the data were processed

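Per the labels, 3 biological replicates of 1 group were sequenced, from 1 µg of RNA each and fragments of 250 to 400 bases. Per the file headers the deposited transcript tables hold estimated counts and TPM from the reads in one layout, and expected counts, TPM, percent of the gene's TPM and bounds of the TPM from transcriptome alignments in another. The deposited bounds, a signal on the TPM scale, describe 1 library each. The accompanying text names build mm10 and annotation M21. Which aligner and which quantifiers were run, and whether they used strand, is not given in the sources used here. Each deposited TPM is scaled over all entries of a table, and how their quantifiers divided reads between transcripts that share exons sets every value here. Rows that name no annotated transcript were left out.

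Coding transcripts of a gene were summed per library. Log2 ratios with 0.1 TPM added to both sides, which draws the ratios of low transcripts towards 0, were fitted with an intercept-only limma 3.58.1 model in R 4.3.3, two-sided, with Benjamini-Hochberg adjustment over all 15105 transcripts tested, and values are mean ± SE. On simulated ratios the same fit was checked, and its calls rose with the size of the change. Introns and intronic shares came from the M21 annotation and transcript sequences, with Python 3.11.15, numpy 2.4.6 and pandas 2.3.3. The members and the 9 gene lists were chosen with earlier results of these data known.

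The text names the 10 members of highest read-based mean, the 10 of highest ratio among those above coding in all libraries of both tables, the 5 largest and 5 smallest differences between the tables, members of the 4 strongest genes of each list, the 3 transcripts on each side of the minimum, the 5 members at 1 TPM or more that varied most, and Irf7, Clk1, Clk4, Ogt and Mat2a. Some members that this rule names are not reported here. Other names were chosen after their values were seen. Alternatives covered thresholds, pseudocounts, filters, denominators, counts, scaling and each library left out.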

Additional observations from a re-analysis of the deposited data

How the results depend on the processing

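No paired analysis was possible because the 3 libraries form 1 group. The number of members was 1773 at a minimum mean of 0.5 TPM, 867 at 1 TPM and 3730 with 0.1 TPM in every library, and 6335 to 8450 with a library left out. At 0.5 and 1 TPM the members held 4.35% and 3.76% of coding TPM in place of 5.52%, and 4.91% to 6.25% with a library left out.

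Members above coding numbered 48 with a gene filter of 5 TPM, 35 against all other transcripts and 37 by estimated counts, which are not per length, in place of 88, and 61 to 90 with a library left out. Members below coding numbered 3388 where the members of a gene were summed and 2156 among those with a lower bound of 0.1 TPM, since fewer units were tested, and 6706 to 6798 with a library left out. Their median log2 ratio was -3.14 with 1 TPM added, -3.78 in the read-based table, -3.68 summed by gene, -6.83 by counts and -3.81 with that lower bound, and -5.02 to -4.41 with a library left out.

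The difference between the tables depended most on low values. With 0.01 TPM added 1513 members were above 0 and 130 below, with a median of 0.65. With 1 TPM added the median was 0.95, summed by gene 2500 were above 0 with a median of 0.69, and rescaled tables gave 950, 88 and 0.56. Members chosen by the alignment-based table had a median of 0.72. With a library left out 3853 to 4417 were above 0 and 235 to 258 below, at medians of 0.75 to 0.81. The cause was not tested.

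The members' share of member and coding TPM was 5.38% by counts and 11.4% at 1 TPM or more in place of 9.35% in the read-based table, and 8.48% to 10.3% with a library left out. In the alignment-based table it was 4.36%, 9.65% and, without the 10 strongest members, 6.08% in place of 7.56%, and 7.13% to 8.31% with a library left out.

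For 45 named transcripts 455 of 492 alternatives kept direction and side of the threshold, 19 fell short of it, 10 passed it and 8 reversed. Aif1-205 turned to -0.86 in the read-based table and -1.27 by counts, Rgs1-203 to -0.97 against all other transcripts and -0.99 by counts, and Slc27a1-205 and Mx2-205 to -0.51 and -2.89 against all other transcripts. Psmb8-205, near 0 throughout, turned to 0.60 by counts, and ran from -0.15 to 0.031 with a library left out. By counts Rps20-201 fell to 0.10, and against all other transcripts Pirb-202 fell to 0.14; neither passed the test there. The median member had 45.4 estimated counts, so single low members are imprecise.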
